A study of Mus musculus with 3 samples.

Results

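The nuclear genome encodes most subunits of the mitochondrial respiratory chain, and 88 such genes were followed here in the cytosolic RNA of mouse macrophages. They were taken from the annotation by name: protein-coding genes whose symbols begin with Ndufa, Ndufb, Ndufc, Ndufs, Ndufv, Uqcr, Cox4i, Cox5, Cox6, Cox7, Cox8 or Atp5, with Sdha, Sdhb, Sdhc, Sdhd, Cyc1 and Cycs. The 88 genes stood among 55536 annotated genes, of which 22015 were protein-coding genes of the nuclear chromosomes. Complex I had 36 genes (7 core and 29 accessory subunits), complex II 4, complex III 9, cytochrome c 1, complex IV 20 and complex V 18. Names that matched but were left out were 8 Ndufaf assembly factors, 9 symbols with a -ps ending and 4 processed pseudogenes.

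Complexes I and II pass electrons from NADH and succinate to ubiquinone, complex III passes them on to cytochrome c, and complex IV gives them to oxygen. Complexes I, III and IV pump protons as they do so, and complex V, the ATP synthase, uses the gradient to make ATP. Every complex except II mixes nuclear-encoded subunits with subunits encoded by mitochondrial DNA. In macrophages, endotoxin is known to shift metabolism towards glycolysis and to change how succinate is used, which makes this chain a standing subject in work on macrophage activation.

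The macrophages were grown from C57BL/6J mouse bone marrow, and 3 libraries were made from their cytosolic RNA after depletion of ribosomal RNA. All 3 were biological replicates of a single condition: 100 ng/ml of Lipid A, the endotoxin part of lipopolysaccharide, for 12 h, a washout of 12 h, and Lipid A at 100 ng/ml again for 90 min. The input was 1 µg of RNA per library, and inserts measured 250 to 400 nt. No unexposed cells and no other fraction were analysed here, so every value below is a level in re-exposed cells and not a response to Lipid A. The labels give the same donor record for all 3 samples, with sex and age not recorded, so the spread between replicates covers these samples only. In such bulk samples, fewer cells of a type and less RNA per cell cannot be told apart.

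The libraries held 40637857, 70407572 and 49678390 expected counts on annotated genes. All 8 macrophage markers were detected, with summed levels of 4938 to 5794 TPM (a level corrected for transcript length and scaled to the same total in each library). Of 6 neutrophil markers 2 were detected, with sums of 7.89 to 12.9 TPM and Ly6g at 0. None of the markers listed for T and NK cells, B cells, dendritic cells, stromal cells or erythroid cells reached 1 TPM in every library. The members took 0.423 ± 0.0263% (SD, n = 3) of the counts.

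Transcription of these genes is known to use, among others, the factors NRF1, GABP (also called NRF2) and YY1, so the promoters are shown first. RefSeq promoters on GRCm38.p6, reaching from 250 bases before the annotated start to 50 after it, were matched by symbol for 68 of the 87 member symbols and gave 73 promoters. The NRF1 letters GCATGCGC, read on both strands, were present in 11 of the 73 (15.1%), against 2.71% of all 32851 promoters in the table and 5.74% of promoters of nuclear protein-coding genes detected here. The YY1 letters AAGATGGC were present in 9 (12.3%), against 2.75% of all promoters and 5.25% of those of detected genes. The GABP letters CCGGAAGT were present in 5 (6.85%), against 3.89% of all promoters and 9.49% of those of detected genes. At least 1 of the 3 motifs was found in 24 member promoters (32.9%), against 8.83% and 19.1%. These are matches of letters in a window, and no binding was measured.

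The 8 member promoters with NRF1 letters that begin within 100 bases before the start are set out because they belong to complexes I, II, III and V and to cytochrome c. Each line is 30 bases, 5′ to 3′ on the gene's strand, with the NRF1 letters in capitals.
Ndufa6 (chr15:82354356-82354385, minus strand): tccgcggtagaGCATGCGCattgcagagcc
Cycs (chr6:50566611-50566640, minus strand): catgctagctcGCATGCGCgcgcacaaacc
Ndufa11 (chr17:56717693-56717722, plus strand): ctgcactgcgcGCATGCGCgcacgccttgt
Sdhb (chr4:140961206-140961235, plus strand): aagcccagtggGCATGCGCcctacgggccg
Atp5k (chr5:108434429-108434458, minus strand): ttcactgcggcGCATGCGCctttctggctt
Atp5g2 (chr15:102671069-102671098, minus strand): gctccggccgcGCATGCGCagagccttccc
Ndufa8 (chr2:36049328-36049357, minus strand): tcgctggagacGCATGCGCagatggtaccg
Uqcr11 (chr10:80406807-80406836, minus strand): atcgccttcacGCATGCGCtatacgtctgc

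The capitals begin 83 bases before the start in Ndufa6, 60 in Cycs, 58 in Ndufa11, 54 in Sdhb, 48 in Atp5k, 40 in Atp5g2, 8 in Ndufa8 and 4 in Uqcr11. Uqcr11 also held the GABP letters, 66 bases before its start. The NRF1 letters read nearly the same on both strands and can overlap themselves; such overlaps were counted as 1 promoter.

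The YY1 letters stood elsewhere. All 9 matches in member promoters were on the gene's own strand, against 61.2% of the matches in all promoters and 70.8% of those in promoters of detected genes. Of the 9, 8 began after the annotated start, against 40.2% and 54.2%. The letters contain ATG, and in those 8 genes that ATG was the annotated start codon in GENCODE M21. Over the forward matches in promoters of all detected nuclear protein-coding genes the ATG was a start codon in 152 of 349 (43.6%). Of the 8, 7 encode complex I subunits and Atp5j2 encodes the f subunit of complex V. The ninth match, in Atp5j, lay 88 bases before the start.
Ndufa3 (chr7:3617384-3617413, plus strand): ccgccaagaacAAGATGGCcgggagtaagt
Ndufc1 (chr3:51408915-51408944, minus strand): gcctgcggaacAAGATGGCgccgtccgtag
Atp5j2 (chr5:145191500-145191529, minus strand): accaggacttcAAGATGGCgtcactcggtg
Ndufs7 (chr10:80249462-80249491, plus strand): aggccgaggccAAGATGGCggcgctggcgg
Ndufa9 (chr6:126849097-126849126, minus strand): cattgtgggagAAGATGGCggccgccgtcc
Ndufs6 (chr13:73328433-73328462, minus strand): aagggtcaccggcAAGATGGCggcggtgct
Ndufs4 (chr13:114388045-114388074, minus strand): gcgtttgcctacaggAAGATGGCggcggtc
Ndufb8 (chr19:44555393-44555422, minus strand): tgaaccgcggagaaggtgAAGATGGCtgcc

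Levels per length ranged widely both with and without these letters. The median of the mean TPM was 40.2 over 11 members with NRF1 letters, 40.7 over 9 with YY1 letters, 86.9 over 5 with GABP letters and 41.7 over 40 detected members whose promoters held none. The ranges overlapped, from 16.8 to 128 TPM with NRF1 letters and from 7.97 to 241 TPM with none.

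Most of the chain was detected. A level of 1 TPM or more in every library was reached by 80 of the 88 members (90.9%), against 40.1% of all nuclear protein-coding genes. At 10 TPM the count was 76 of 88 (86.4%), against a background of 16.5%. At 100 TPM it was 9 of 88 (10.2%), against 1.87%, and those 9 were 7 genes of complex IV and 2 of complex V. That last count depends on the scale: it was 0 in the second deposited quantification and 45 after rescaling over nuclear protein-coding genes. All genes of complexes I, II and III and cytochrome c were detected, as were 17 of 18 in complex V and 13 of 20 in complex IV. The median member stood at 38.0 ± 1.93 TPM (SD, n = 3), and the median of those detected at 43.4 TPM, against 8.48 TPM over detected nuclear protein-coding genes.

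The complexes differed in level by more than the spread between replicates. The median gene of complex I stood at 28.8, 29.8 and 27.3 TPM in replicates 1, 2 and 3. Complex II stood at 44.4, 42.1 and 39.9 TPM. Complex III stood at 60.1, 59.6 and 56.0 TPM, complex IV at 63.7, 61.6 and 55.1 TPM, and complex V at 71.1, 66.6 and 63.7 TPM. Complex I was lowest in all 3 libraries and complex II next, while the values of complexes III and IV overlapped, and those of IV and V met. On the scale of log2(TPM + 1), the median of complex V was 1.20 ± 0.07 (SD, n = 3) above that of complex I, complex IV 1.04 ± 0.07, complex III 1.01 ± 0.03 and complex II 0.54 ± 0.06, each with the same sign in 3 of 3 libraries. With 3 libraries an exact sign-flip test cannot give a two-sided p below 0.25, so no p is given. The complex IV median covers its 7 undetected genes, and without them the difference from complex I was 1.97. Over detected genes alone the median of the mean TPM was 118 in complex IV, 68.9 in complex V and 58.6 in complex III. The order of complexes III, IV and V thus depends on whether undetected genes are counted.

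Complex I is the largest complex of the chain. Its 7 nuclear-encoded core subunits carry the flavin and iron-sulfur clusters that take electrons from NADH, and the accessory subunits surround and stabilise the core. Core subunits lay between 10.3 and 31.4 TPM. Ndufs3, a core subunit of the hydrophilic arm, was the highest of them at 33.0, 32.4 and 28.8 TPM. Ndufs7, an iron-sulfur subunit, was at 28.9, 26.9 and 26.8 TPM. Ndufs3 exceeded Ndufs7 in 3 of 3 libraries, with ranges that just overlapped.

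The other core subunits named here were lower by mean TPM. Ndufv1, the flavin-bearing subunit at which NADH is oxidised, was the lowest at 10.6, 10.6 and 9.79 TPM. Ndufs1, the largest core subunit with several iron-sulfur clusters, was at 12.6, 12.9 and 12.9 TPM, the tightest values of any detected member (coefficient of variation 1.09%). Ndufs8 was at 25.4, 24.8 and 21.8 TPM, and Ndufv2, Ndufv1's partner in the NADH module, stood at 26.2 ± 1.56 TPM. Ndufv1 and Ndufs1 lay below the other core genes named here in every library.

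Accessory subunits spanned a wider range, from 7.97 to 74.2 TPM, and 28 of 29 reached 10 TPM in every library. Ndufa3 was at 81.8, 72.8 and 68.0 TPM, of which 39.5, 31.4 and 28.1 TPM were on a nonsense-mediated decay transcript of 343 nt. Ndufb8 was at 75.5, 78.2 and 68.0 TPM, and Ndufa1, an X-linked subunit of the membrane arm, at 84.1, 69.7 and 63.5 TPM. By gene level these 3 were the highest and overlapped among themselves. On their leading coding transcripts Ndufb8 and Ndufa1 had 70.1 and 72.4 TPM on average, against 39.6 TPM for Ndufa3. At the low end, Ndufb4 was at 8.84, 7.86 and 7.21 TPM, Ndufb2 at 13.4, 15.8 and 14.1 TPM and Ndufa9 at 16.6, 17.4 and 15.8 TPM. Ndufb4 was the only accessory gene below 10 TPM, and a near-identical copy, described further on, held as many counts. Between these ends, Ndufs4, which is deleted in a widely used mouse model of Leigh syndrome, stood at 24.3 ± 0.885 TPM, and Ndufab1, which is also the mitochondrial acyl carrier protein, at 23.4 ± 4.28 TPM. The accessory median exceeded the core median by 0.21 ± 0.04 on the log2(TPM + 1) scale, in 3 of 3 libraries. In expected counts scaled to library size, without correction for length, the sign turned to -0.88. Core transcripts had a median length of 1201 nt and accessory ones 657 nt.

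**Figure D1:**
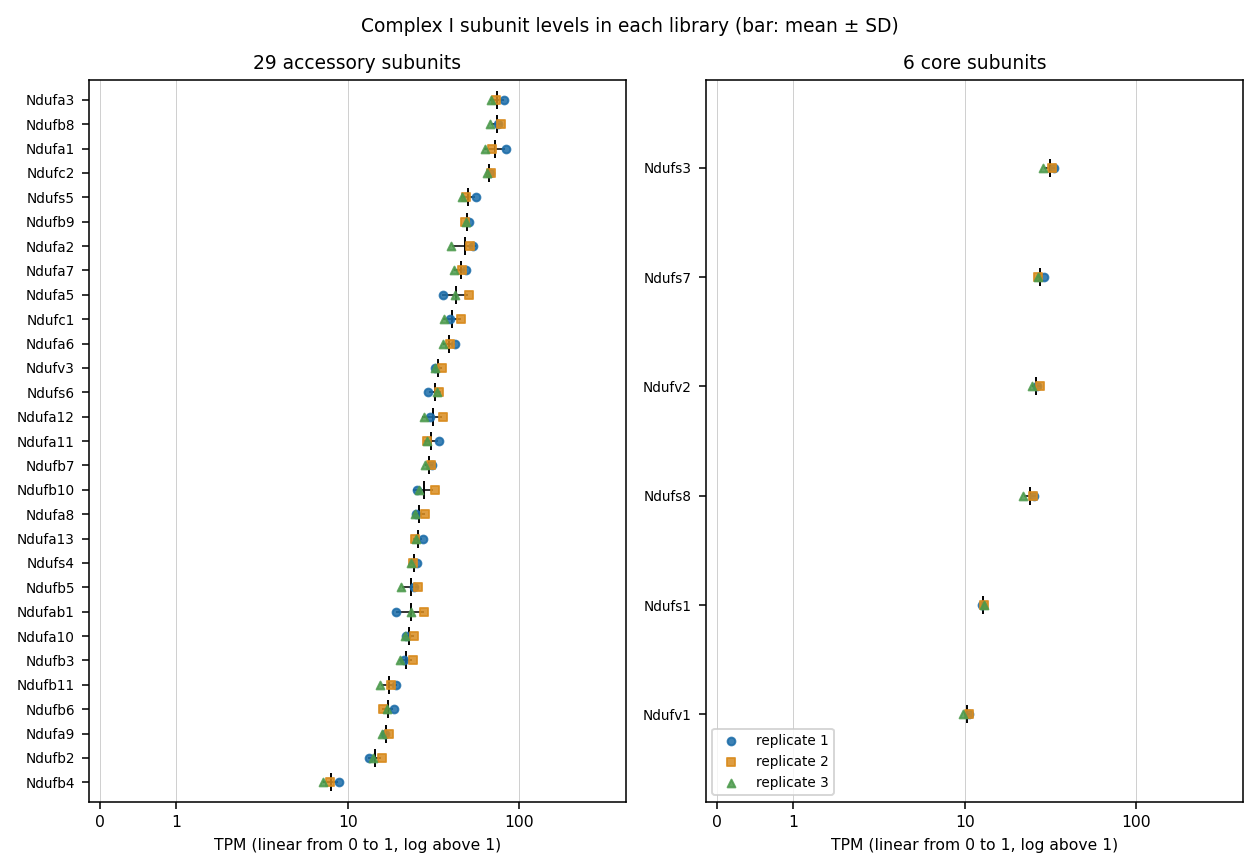
Level of each complex I subunit gene in each library in TPM (x axis, linear up to 1 and logarithmic above), with accessory subunits on the left and 6 core subunits on the right; coloured points are replicates and black bars mean ± SD. By gene level, over all transcripts, accessory genes run from Ndufa3 at 74.2 TPM to Ndufb4 at 7.97 TPM, and core genes from Ndufs3 at 31.4 TPM to Ndufv1 at 10.3 TPM.

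Complex II, succinate dehydrogenase, is encoded wholly in the nucleus and is also an enzyme of the citric acid cycle. Sdhb, its iron-sulfur subunit, was highest at 66.3, 64.3 and 68.0 TPM. Sdha, the flavoprotein that oxidises succinate, was at 47.3, 43.5 and 40.5 TPM. The membrane anchors Sdhd and Sdhc were at 41.4, 40.6 and 39.3 TPM and at 28.5, 33.0 and 28.6 TPM. Sdhb was above the other 3 and Sdhc below them in every library, while Sdha exceeded Sdhd in 3 of 3 libraries with overlapping ranges. By counts the order differed: Sdha, with a transcript length of 2846 nt, held 10229 counts on average against 5391 for Sdhb. In expected counts scaled to library size the median of complex II was 1.86 above that of complex I, against 0.54 per length.

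Complex III, the cytochrome bc1 complex, passes electrons through cytochrome b, which is mitochondrially encoded, and through Cyc1 (cytochrome c1) and Uqcrfs1 (the Rieske iron-sulfur protein). Its highest genes encode small subunits without redox centres. Uqcrh, the hinge protein, was at 101, 104 and 93.1 TPM, Uqcrb, which helps form the quinone site, at 95.9, 101 and 95.8 TPM, and Uqcrq at 88.6, 82.2 and 76.2 TPM. The lowest were Cyc1 at 15.7, 15.8 and 14.5 TPM, Uqcrc2, a core protein of the matrix side, at 20.1, 19.4 and 19.3 TPM, and Uqcrfs1 at 26.8, 25.0 and 20.8 TPM. The 3 low genes lay below the 3 high ones in every library, with no overlap. The partner core protein Uqcrc1 stood at 29.5 ± 1.36 TPM, above Uqcrc2 in 3 of 3 libraries.

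Cytochrome c, the soluble carrier between complexes III and IV, is encoded for somatic cells by Cycs. Cycs was at 17.9, 16.2 and 16.3 TPM, close to Cyc1 and below the complex III median in each library. It had the longest transcript of any detected member, 3080 nt, and 4254 counts on average, so that its place among members was low by TPM and high by counts. The low TPM depends in part on how reads were split with a near-identical copy, described further on, whose transcript model has 946 nt. A count on so short a model weighs more in TPM. The sum of both, 68.8, 58.4 and 56.2 TPM, is therefore not the level Cycs would have with all reads, which was not computed.

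Complex IV, cytochrome c oxidase, held most of the highest levels. Cox4i1, the largest nuclear-encoded subunit and a regulatory one, was at 197, 200 and 172 TPM. Cox8a was at 136, 145 and 160 TPM and Cox5a at 154, 134 and 143 TPM. Cox4i1 exceeded both in every library, and Cox8a and Cox5a crossed each other. Cox6b1, which faces the intermembrane space, stood at 142 ± 10.9 TPM, Cox6c at 133 ± 5.01, Cox7c at 120 ± 7.94 and Cox6a1 at 118 ± 6.13. These 7 genes were all at 100 TPM or more in every library. Cox5b, Cox7a2, Cox7a2l and Ndufa4 formed a lower set between 58.5 and 67.4 TPM, and Cox7b was lower again at 33.02, 30.02 and 27.13 TPM.

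Several complex IV subunits exist as isoforms encoded by separate genes, with a broadly expressed form and forms known from heart and skeletal muscle, lung, testis or hypoxic cells. In these macrophages the broad forms carried the RNA. Cox4i2, the form known from lung, had 0 counts in every library, and Cox4i1 was at least 1999-fold higher when Cox4i2 was set to 3 counts per library. On the same floor, Cox7b was at least 206-fold above Cox7b2, Cox8a at least 349-fold above Cox8b and at least 611-fold above Cox8c, and Ndufa4 at least 666-fold above Ndufa4l2, a gene known to be induced by hypoxia. Cox6b2, known from testis, was listed at 0, 0.05 and 0 TPM, against 132, 153 and 140 TPM for Cox6b1. The floors cover counting error only.

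Muscle forms of Cox6a and Cox7a were the exceptions. Cox6a2 (ENSMUSG00000030785.8 on chromosome 7) was detected at 3.48, 2.97 and 1.58 TPM, from 106 counts on average, and Cox6a1 at 115, 125 and 114 TPM. The log2 ratio of Cox6a1 to Cox6a2 was 5.54 ± 0.58 (SD, n = 3). Cox7a1 was at 0.52, 1.12 and 0.91 TPM, from 13.7 counts on average, and the log2 ratio of Cox7a2 to Cox7a1 was 6.28 ± 0.63. Markers of striated muscle were near 0 beside them: none of 7 was detected, their sum was 0.04 to 0.28 TPM, and Actn2, Myh6, Myh7, Tnnt2 and Ttn were at 0 in every library. Male germ cell markers likewise had 0 of 6 detected and a sum of 0.29 to 1 TPM. On the genome Cox6a2 is overlapped on the opposite strand by the protein-coding gene Itgad, which was at 0.04, 0.01 and 0.03 TPM. Capns1, which lies 858 nt from Cox7a1, was at 116 TPM; its part in the Cox7a1 counts was not tested.

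Cox7a2l, also called SCAFI or COX7RP and known as a factor that joins complexes III and IV into supercomplexes, was level with its relative Cox7a2. Cox7a2l was at 72.5, 73.1 and 56.5 TPM and Cox7a2 at 66.8, 64.7 and 58.1 TPM. The log2 ratio of Cox7a2 to Cox7a2l was -0.12, -0.18 and 0.04, so its sign differed between libraries.

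**Figure D2:**
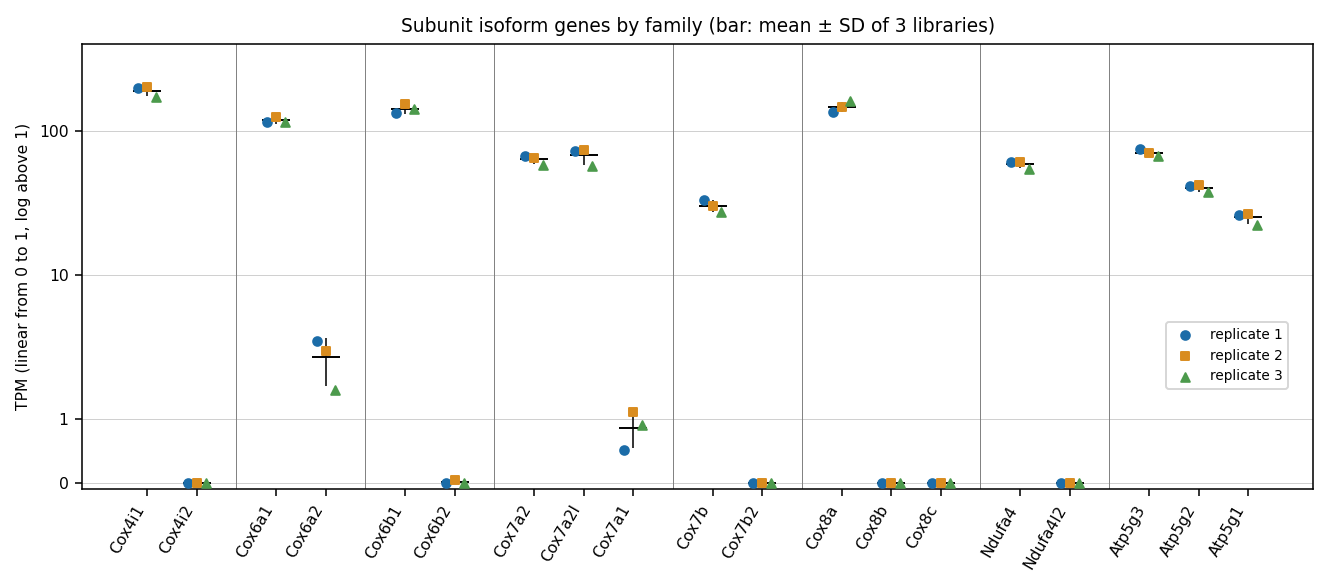
Level of each isoform gene in TPM (y axis, linear up to 1 and logarithmic above), grouped by family; points are replicates and bars mean ± SD. In 6 families a broad form lies at 30.1 TPM or more while its other forms lie at 2.68 TPM or less; Cox7a2l and the Atp5g genes lie together with their relatives.

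Complex V consists of a catalytic head, a stalk and a proton-driven rotor. Atp5b, the catalytic beta subunit, had the highest gene level of all 88 members at 251, 247 and 224 TPM, of which 121, 123 and 113 TPM were on its coding transcript. Atp5a1, the alpha subunit that alternates with beta in the head, was at 89.7, 97.5 and 92.1 TPM, and both had about the same number of counts, 20619 and 18844 on average. The other high genes encode small subunits: Atp5l (subunit g) at 145, 129 and 109 TPM and Atp5e (epsilon) at 112, 115 and 83.3 TPM. By gene level Atp5b was above these in every library, whereas Atp5l, Atp5e and Atp5a1 were closer together. The gamma and delta subunits of the central stalk, Atp5c1 and Atp5d, stood at 63.3 ± 3.17 and 49.3 ± 1.42 TPM.

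The lowest detected member was Atp5s, also called factor B, at 1.63, 1.76 and 1.71 TPM. A further entry under the symbol Atp5o had 0 counts in every library, while the main Atp5o entry, the stalk subunit that confers oligomycin sensitivity, stood at 64.3 ± 2.67 TPM. The c subunit of the rotor ring is encoded by 3 genes whose mature proteins are known to be identical. Atp5g3 was at 74.5, 70.4 and 66.5 TPM, Atp5g2 at 41.3, 42.1 and 37.3 TPM and Atp5g1 at 26.1, 26.5 and 22.2 TPM. The order was the same in 3 of 3 libraries. Together they reached 136 ± 8.49 TPM, of which Atp5g3 made up 52.0 ± 1.14%, Atp5g2 29.7 ± 0.578% and Atp5g1 18.4 ± 0.706%.

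**Figure D3:**
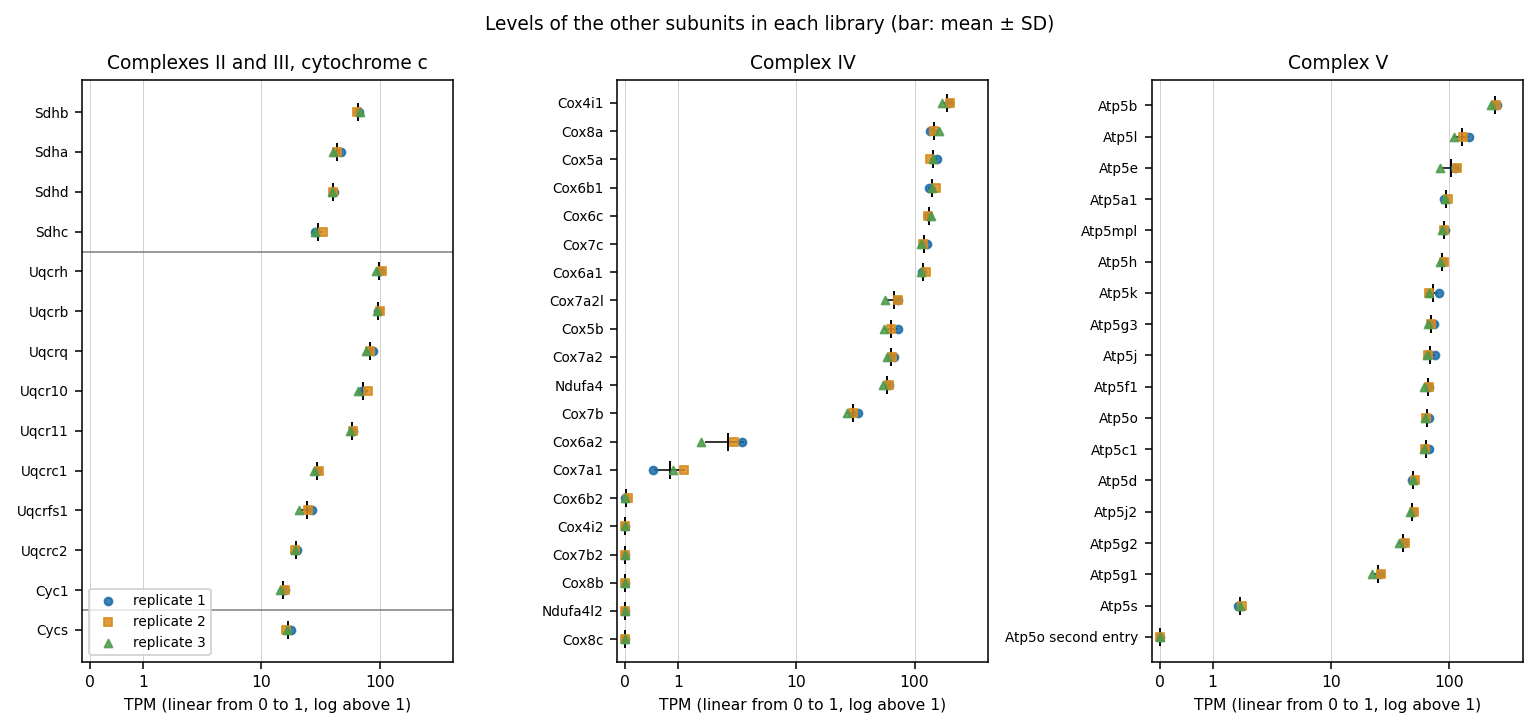
Levels in TPM (x axis, linear up to 1 and logarithmic above) of the subunit genes of complexes II and III and cytochrome c (left, separated by grey lines), complex IV (centre) and complex V (right); points are replicates and black bars mean ± SD. Complex IV splits into 12 genes at 27.1 TPM or more in every library and 8 genes at 3.48 TPM or less, and complex V gene levels run from Atp5b at 241 TPM down to Atp5s at 1.70 TPM.

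Subunit transcripts are short, and level per length fell with length. The median transcript length of the 80 detected members was 708 nt, against 2519 nt over detected nuclear protein-coding genes. Across the 80 members Spearman's rho between length and mean TPM was -0.52, and between length and mean expected counts 0.40. In complex I the values over 36 genes were -0.68 and 0.52. Over 8826 detected nuclear protein-coding genes they were -0.17 and 0.34. These are descriptions across genes, which share libraries and are not independent replicates, and TPM itself divides by length. Inserts were selected at 250 to 400 nt, and 2 members, Atp5mpl and Atp5k, had lengths under 400 nt.

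**Figure D4:**
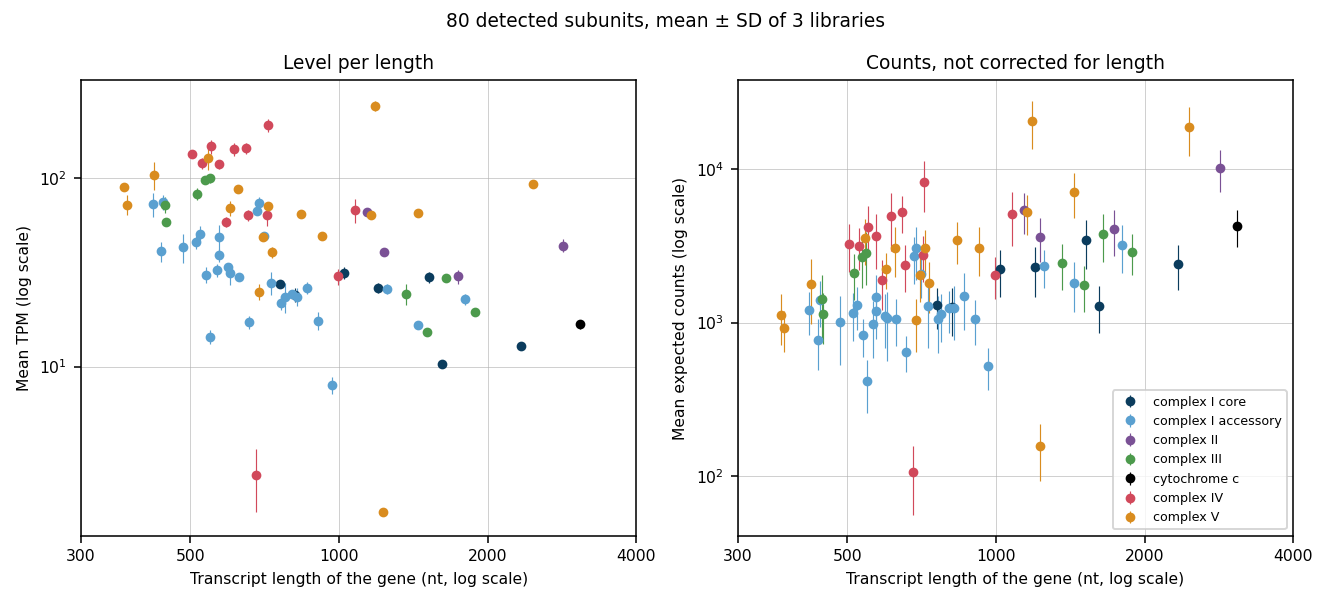
Mean TPM (left) and mean expected counts (right) against the transcript length of each of the 80 detected subunit genes, all axes logarithmic, with SD bars over 3 libraries and colours by complex. Short subunits stand higher on the left panel (rho -0.52) and lower on the right panel (rho 0.40).

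Replicates were close for these genes. The coefficient of variation of TPM had a median of 7.20% over the 80 detected members, against 10.1% over detected nuclear protein-coding genes. In edgeR's deviance test of expected counts against the trended dispersion, 0 of 80 members varied between libraries at an adjusted p below 0.05, against 1.96% of the 12256 genes tested. At an unadjusted edgeR p below 0.05 the count was also 0 of 80, against 6.88% of all genes tested. With DESeq2's size factors and dispersion trend it was 0 of 82 by either rule, against 1.07% of 20932 genes by adjusted p and 4.04% by unadjusted p. The smallest unadjusted edgeR p values were 0.14 for Cox6a2, 0.19 for Ndufa5 and 0.25 for Atp5e, each with an adjusted p of 1.00. By coefficient of variation Cox6a2 (36.7%), Ndufab1 (18.3%), Ndufa5 (17.6%) and Atp5e (16.8%) were the widest detected members.

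The libraries were nevertheless offset together. Of the 80 detected members 59 (73.8%) had their lowest TPM in replicate 3, as did 54.7% of detected nuclear protein-coding genes. After TPM were rescaled to the same total over nuclear protein-coding genes, 61 (76.3%) were instead lowest in replicate 1, against 58.5% of the background. The shift between libraries thus changed with the scale, and the direction of the common offset has no scale-free reading here.

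Mitochondrially encoded subunits, from the other genome of the chain, were higher by median and differed more between replicates. The libraries were made from cytosolic RNA, and how much mitochondrial RNA that fraction held was not measured. Their median was 78.0, 103 and 130 TPM in replicates 1, 2 and 3, and 12 of 13 were detected. The nuclear-encoded median lay 1.40 ± 0.40 below theirs on the log2(TPM + 1) scale (-1.03, -1.34 and -1.82). By complex the difference was -1.72 ± 0.43 for complex I, -0.99 ± 0.54 for complex III and -1.32 ± 0.41 for complex V. Each was negative in 3 of 3 libraries, but they rest on 7, 1 and 2 mitochondrially encoded genes. For complex IV, with 3 such genes, the difference was 1.03, -1.04 and -1.05, with opposite signs, before any copies were added. The split of reads weighs on these values: 9 of the 13 genes had nuclear copies of at least 95% identity over 200 nt, and at 4 of them a copy held as many counts or more. mt-Co2 was listed at 6.88, 0 and 5.30 TPM while its copy Gm28661, identical over 681 nt, was at 337, 408 and 565 TPM. mt-Co3, the median of the complex IV genes in every library, was at 30.7, 127 and 115 TPM. Its copy Gm28437, identical over 783 nt, was at 203, 177 and 317 TPM. In replicate 1 both copies exceeded the nuclear-encoded complex IV median of 63.7 TPM, so the positive sign there depends on the split. In complex V mt-Atp8 was at 485, 549 and 1036 TPM, and mt-Atp6 at 42.3, 41.1 and 47.3 TPM, below the nuclear-encoded median in every library. The copy of mt-Atp6, Gm10925, identical over 678 nt, was at 163, 216 and 305 TPM. The differences by complex were not recomputed with copies added. With the copies added to the mitochondrial genes the overall difference was -1.72 ± 0.50.

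Assembly factors, which build the complexes but do not stay in them, were far lower than the subunits. Of 47 such genes 43 were detected, with a median of 4.78 ± 0.240 TPM, and the subunit median was 2.75 ± 0.09 higher on the log2(TPM + 1) scale in 3 of 3 libraries. Their highest members overlapped the subunits: Cox17, a copper chaperone for complex IV, was at 98.22, 93.51 and 98.03 TPM, Coa5 at 68.4, 55.3 and 56.6 TPM and Uqcc2 at 24.9, 28.2 and 26.6 TPM. Pet117 was at 0 in every library and Lyrm7, a chaperone for the Rieske protein, at 0.28, 0.2 and 0.2 TPM.

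Among 14 transcriptional regulators of the chain 12 were detected, with a median of 3.97 ± 0.129 TPM. Hcfc1, a coregulator, was highest at 13.7, 14.5 and 14.9 TPM, followed by Esrra at 10.6, 9.26 and 9.49 TPM and Gabpa, the DNA-binding subunit of GABP, at 8.22, 8.49 and 7.54 TPM. Nrf1 and Yy1 stood at 4.02 ± 0.121 and 5.98 ± 0.0833 TPM. The lowest were coactivators of the PGC-1 family: Ppargc1a, a known driver of mitochondrial biogenesis, was listed at 0, 0 and 0.01 TPM and Ppargc1b at 0.84, 0.72 and 0.81 TPM. Their relative Pprc1 was higher, at 3.85, 4.74 and 5.29 TPM.

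Near-identical copies affect some members. A search of the detected members' coding transcripts against all annotated transcripts found 43 copies elsewhere of 23 members, 40 of them pseudogenes, of which 18 had 0 counts in every library. Atp5l had the most, with 9. At 4 members a copy held at least 1% as many counts as the gene itself. Gm10053 (chr19:24875686-24876631), annotated as protein-coding and 99.9% identical to Cycs over 946 nt, was at 51.0, 42.2 and 39.9 TPM, above Cycs in every library, and Cycs received 60.3% of the counts of the pair. Together they reached 61.1 ± 6.73 TPM, a sum over models of unlike length (946 nt for Gm10053, 3080 nt for Cycs).

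Atp5g2 was split differently by the 2 quantifications that were deposited. Gm10175 (chr7:23946646-23947290), a transcribed processed pseudogene identical to it over 645 nt, left Atp5g2 75.7% of the pair's counts in the gene table. In the second transcript table, which was quantified directly from the reads, Atp5g2 kept 10.2% of the counts and stood at 3.96, 2.11 and 2.61 TPM, below Atp5g1, while Gm10175 was at 30.8, 34.3 and 27.1 TPM. Rescaled over nuclear protein-coding genes, the second table gave 0.131 of the gene table's level for Atp5g2 alone and 1.07 ± 0.00791 for the sum of the pair. The sum was therefore stable and its division was not, and the c-subunit shares above hold for the gene table only.

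Ndufb4 shared its reads about evenly with the processed pseudogene Ndufb4c (chr15:73809507-73809896), identical over 390 nt. Ndufb4 kept 49.9% of the pair's counts and stood at 7.97 TPM, while Ndufb4c was at 38.6, 35.5 and 35.6 TPM. The copy's model of 390 nt is shorter than the coding transcript of Ndufb4, 971 nt, so like counts gave it more TPM. The pair summed to 44.6 ± 2.54 TPM, which is not the level Ndufb4 would have with all reads. Across the rest of the chain the 2 quantifications differed little: 78 of 80 detected members were within 1.5-fold on the rescaled scale (97.5%, against 98.4% of detected nuclear protein-coding genes). The exceptions were Atp5g2 and Cox6a2, the latter 1.74-fold higher in the second table.

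Gene levels also hold RNA that is not annotated as coding. Transcripts typed as protein-coding took 89.9 ± 0.343% of the members' TPM and 94.4 ± 0.409% of their counts. In 63 of 80 detected members they took 90% or more of the TPM, in 11 under 75%, and in 6 the leading transcript was not a coding one. Ndufa5 had only 16.8% of its TPM on coding transcripts, with 61.6% on a processed transcript of 453 nt. Ndufs4 had 26.4%, with 56.0% on a nonsense-mediated decay transcript of 571 nt, and Atp5j 27.3%, with 71.6% on a retained-intron transcript of 526 nt. These non-coding models are shorter than the coding ones, so that counts gave higher coding shares, as in Atp5b: its coding transcript of 1916 nt took 87.7% of the gene's counts and 49.5% of its TPM, 119 ± 5.29 TPM. On coding transcripts alone Atp5b was below 6 members by mean TPM: Cox4i1 (172), Cox8a (147), Cox5a (143), Cox6b1 (141), Cox6c (133) and Atp5l (126). In that measure Atp5l exceeded Atp5b in replicates 1 and 2 and lay below it in replicate 3.

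**Figure D5:**
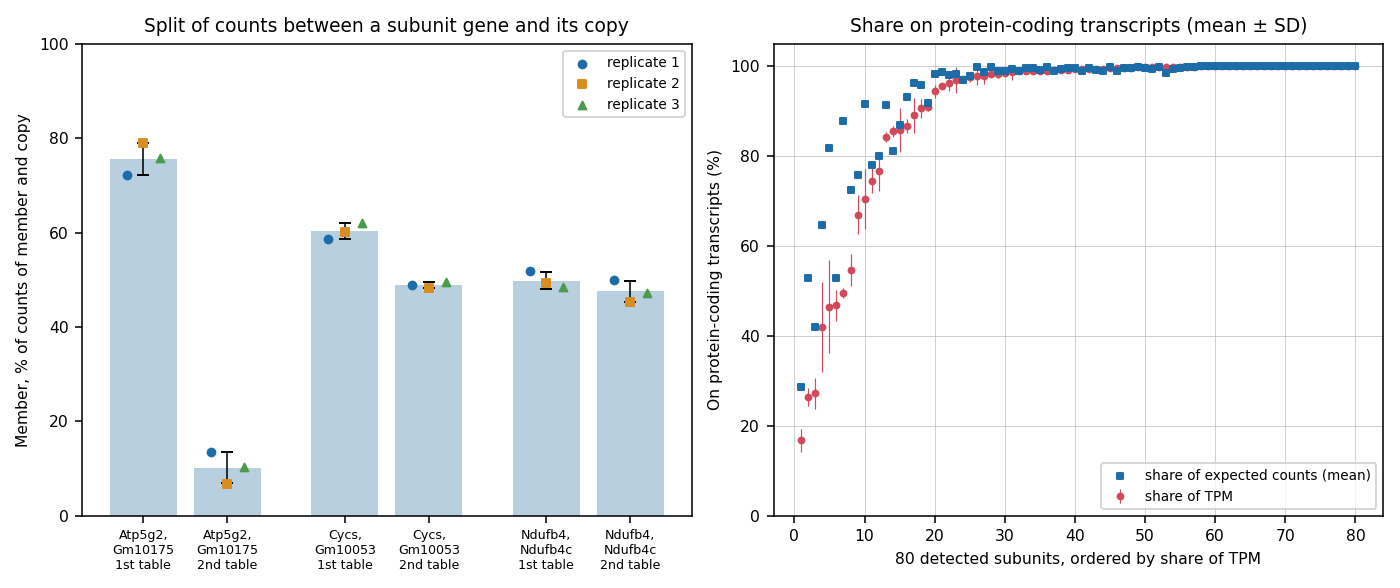
Left, share of counts (y axis, percent) given to Atp5g2, Cycs and Ndufb4 out of the gene and its near-identical copy in the 2 deposited quantifications, as bars of the mean with SD and points for replicates; right, share of TPM (circles, mean ± SD) and of expected counts (squares, mean) on protein-coding transcripts for each of the 80 detected subunits. Atp5g2 drops from 75.7% to 10.2% between quantifications, and 17 subunits lie under 90% of TPM on coding transcripts.

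Overlaps on the genome touch other members. Of the 80 detected members 37 overlapped another annotated gene, and 14 overlapped one at 1 TPM or more. Ndufs1 overlaps Eef1b2, which lay on the opposite strand at 83.1, 76.1 and 60.3 TPM, well above Ndufs1 itself. Atp5j overlaps Gabpa on the opposite strand. Cox4i1 overlaps the protein-coding gene Gm20388 on the same strand, at 6.96, 11.4 and 10.6 TPM from 1616, 5042 and 3481 counts. No source used here states if counting took account of strand. The overlaps are of whole gene spans, and overlap of exons was not examined. How far reads of these pairs were mixed was not tested.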

How the data were processed

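Cytosolic RNA, depleted of ribosomal RNA, was quantified in 3 libraries of 1 group. The notes deposited with each sample give mm10 and GENCODE M21; the sources used here name no programs. Per the file headers, the authors deposited expected counts and TPM per gene and per transcript, with the percent of each gene's TPM on each transcript, from transcriptome alignments, and a second transcript table of estimated counts and TPM, quantified directly from the reads, per the deposited notes. Totals of annotated genes are the depth, from 40637857 to 70407572 counts; they bound counting error only.

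Members and lists were chosen with earlier results of these data known. Detection means 1 TPM in every library. Differences are per-library medians of log2(TPM + 1), as mean ± SD. A gene with 0 counts was set to 3 counts for a fold. Variability was tested with R 4.3.3 and edgeR 4.0.16, after rounding of the expected counts: TMM, filterByExpr, trended dispersion, residual deviance of an intercept model, Benjamini-Hochberg over all genes tested; spike-in and tRNA rows were left out. The test was checked on simulated data. DESeq2 1.42.0 gave an alternative. Copies were found with blastn 2.17.0 at 95% identity over 200 nt or more. Genes named with all values are the 3 highest and 3 lowest of each complex, isoform pairs and undetected members, and of other lists the 3 highest and 2 lowest; others were named after their values were seen. Alternatives were the other table, rescaling over nuclear protein-coding genes, a pseudocount of 0.1, uncorrected counts, filters, other thresholds and leaving out each replicate. The RefSeq promoter table was matched by symbol. No protein sequences were used here. Values of 1 core subunit gene are not reported here on their own; it stays in the counts and medians.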

Additional observations from a re-analysis of the deposited data

How the results depend on the processing

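Of 141 alternatives over 18 results, 109 kept direction and stayed within the replicate spread (or within 1.5-fold for counts), 30 moved further and 2 reversed; the cause was not tested. The reversals were accessory minus core subunits in counts not corrected for length (-0.88) and Atp5g2 to Atp5g1 in the second transcript table (-2.27). No paired analysis was possible because there is 1 group.

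In the second table the median member was 4.41 against 5.28, complex V minus I 1.10, III minus I 0.91, II minus I 0.46, subunits minus assembly factors 2.48, Cox6a1 to Cox6a2 4.71 and Atp5g3 to Atp5g2 3.78, and 0 members reached 100 TPM. Rescaled TPM gave 6.99 for the median, 2.91 over assembly factors and 45 members at 100 TPM. Uncorrected counts gave 5.11 for the median, 0.79 for IV minus I, 1.02 for V, 0.90 for III, 1.86 for II, -0.96 for nuclear minus mitochondrial, 1.84 over assembly factors, and ratios of 7.65 (Cox7a2 to Cox7a1), -1.09 (Cox7a2 to Cox7a2l) and 0.82 (Atp5g2 to Atp5g1). A pseudocount of 0.1 gave 2.96 over assembly factors, and 1 TPM added to both genes 5.13 for Cox7a2 to Cox7a1. Over detected members alone the median was 5.48 and IV minus I 1.97. On coding transcripts, an alternative chosen after seeing the data, the median was 5.01, IV minus I 0.94, III 1.12, II 0.65 and accessory minus core 0.15.

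Leaving out each replicate kept every sign: 1.00 to 1.07 for IV minus I, 1.16 to 1.23 for V, 0.99 to 1.02 for III, 0.51 to 0.57 for II, -1.58 to -1.18 for nuclear minus mitochondrial, and -0.15 to -0.04 for Cox7a2 to Cox7a2l. The alternatives chosen later, Ndufa4 and Ndufa4l2 in complex I (1.11 for IV minus I) and mitochondrial copies added (-1.72), kept theirs. No alternative called a member variable. The 0.85 TPM of Cox7a1 rests on 13.7 counts, so depth limits its ratio.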

Other observations

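Ndufb1-ps, left out by its name, is annotated as a bidirectional promoter lncRNA and was at 51.3, 44.2 and 46.5 TPM, within the range of the complex I accessory subunits. Whether this locus is the mouse counterpart of the subunit gene Ndufb1 was not settled here, and the 36 complex I genes do not include it. The processed pseudogenes Cox6c2, Ndufa11b and Ndufs6b were at or near 0, with 0.123 TPM on average for Cox6c2 and 0 for the others.

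Transcript choice also differed within coding models. Ndufv3 has a short form that is a complex I subunit and a longer form known to replace it in some tissues. Ndufv3 had 90.4 ± 0.254% of its TPM on the model of 493 nt and 9.18 ± 0.0907% on the model of 1582 nt, in close replicate agreement. A count on the shorter model weighs more in TPM, so these shares understate the longer form's share of counts. Atp5c1 had 92.1 ± 2.94% on a model of 1166 nt and 7.82 ± 2.92% on a model of 1060 nt.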
